A study of Homo sapiens with 12 samples.

Results

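Vincristine (VCR) is a vinca alkaloid that binds beta-tubulin, blocks the growth of microtubules and holds dividing cells in mitosis, where the spindle checkpoint keeps the anaphase-promoting complex from acting. The response of cells that carry a PTPN21 construct to this drug is given here. It was read from 6 of the 12 RNA-seq libraries of the series, 3 of the group PTPN21+VCR and 3 of the group PTPN21+DMSO. PTPN21 is a cytosolic protein tyrosine phosphatase with a FERM domain. Both groups are labelled as Jurkat, a human T cell leukemia line, both carry the FLAG-tagged PTPN21 construct driven by the viral SFFV promoter, and both were cultured for 48 h, with VCR or with its solvent DMSO. The other 6 libraries (NC+DMSO and NC+VCR, labelled WT) serve as the background. According to the methods of the study, its control cells carried the GFP vector. Each arm is 1 line with 1 construct, and the VCR concentration used for the RNA is not given in the sources used here. The methods give 3 replicates for each group and speak in general of repeated experiments, but do not say whether these libraries came from separate cultures, so the p-values measure the spread between these libraries, which may be technical.

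The values are FPKM, fragments scaled by gene length and by library size. Of the 60671 genes in the table, 11423 averaged 1 FPKM or more across the 6 PTPN21 libraries and were tested, on the log2(FPKM + 1) scale, which understates the change of genes with low values. A gene that averaged under 1 FPKM in 1 group passed only through the other group, so the filter sets the direction in which its mean differs. The number of fragments per library is not stated. It was estimated from steps in the low values of single-exon genes (8702 genes searched, 701 to 864 values used per PTPN21 library). The steps correspond to 45.1 to 47.8 M fragments per PTPN21+DMSO library and 40.9 to 44.6 M per PTPN21+VCR library. Between 48.8% and 50.9% of these values were close to a whole step. Chance gives 20% for a step fixed in advance, but the step with the highest share was kept here, so the estimate is rough. Between 19953 and 20329 genes were above 0 with DMSO and between 18806 and 19630 with VCR. Replicates correlated with r of 0.966 to 0.975 on the log2 scale over the genes tested.

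The labelled cell type was checked first, and the data go against it. Jurkat cells are known for the T cell receptor complex and its kinases. Of 11 T lineage markers, only CD3D, a chain of the receptor complex, and PTPRC, the leukocyte phosphatase CD45, were at 1 FPKM or more on average in any group. In the PTPN21 libraries CD3D was at 139.7, 116 and 135 FPKM with DMSO and 111, 107 and 110.1 FPKM with VCR. By contrast LCK, CD247 and CD5 were at 0 in all 12 libraries, and 8 of the 11 markers stayed under 1 FPKM in every library. CD3E did not pass 0.146 FPKM and CD2 did not pass 0.0287 FPKM. The summed level of the list was 131 to 150.4 FPKM with DMSO and 134 to 143 FPKM with VCR.

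Some markers of other lineages were also expressed. From a list of 6 red cell and platelet markers, HBA1 (alpha-globin) was at 190.1, 133 and 138 FPKM with DMSO and 60.1, 73.9 and 75.4 FPKM with VCR. ALAS2, which starts haem synthesis in red cells, was at 11.4, 12.6 and 12 FPKM with DMSO and 9.17, 7.41 and 8.47 FPKM with VCR, while the platelet chemokine PF4 was at 0 in all 12 libraries. The summed level of this list moved with the drug, from 224 to 328 FPKM with DMSO to 107 to 127 FPKM with VCR.

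The epithelial markers KRT8, KRT18 and EPCAM were above 50 FPKM in all 12 libraries, and the other 7 of 10 fibroblast, endothelial and epithelial markers were under 1 FPKM in every PTPN21 library. That list summed to 510.4 to 579 FPKM with DMSO and 1203 to 1676 FPKM with VCR. CD68, a lysosomal protein of macrophages, led 7 myeloid markers that summed to 298 to 359.8 FPKM with DMSO and 128 to 185 FPKM with VCR, while CD14, CSF1R, MPO and S100A9 stayed under 1 FPKM. The mean of CD68 was 322 FPKM with DMSO and 147 FPKM with VCR. LYZ was at 12.3, 11.9 and 12.8 FPKM with DMSO and 10.0, 9.90 and 13.5 FPKM with VCR. ITGAM was at 1.08, 1.61 and 1.08 FPKM with DMSO and 1.15, 1.53 and 1.17 FPKM with VCR. The groups overlapped for LYZ and ITGAM. The 6 B lineage markers summed to at most 1.31 FPKM and the 6 NK markers to at most 5.57 FPKM in any PTPN21 library. These shifts stand beside every result below, and their part in the results was not tested. The libraries are named by their labels here and no cell type is given to them. In bulk RNA, fewer cells of a kind and less RNA per cell cannot be told apart.

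**Figure D1:**
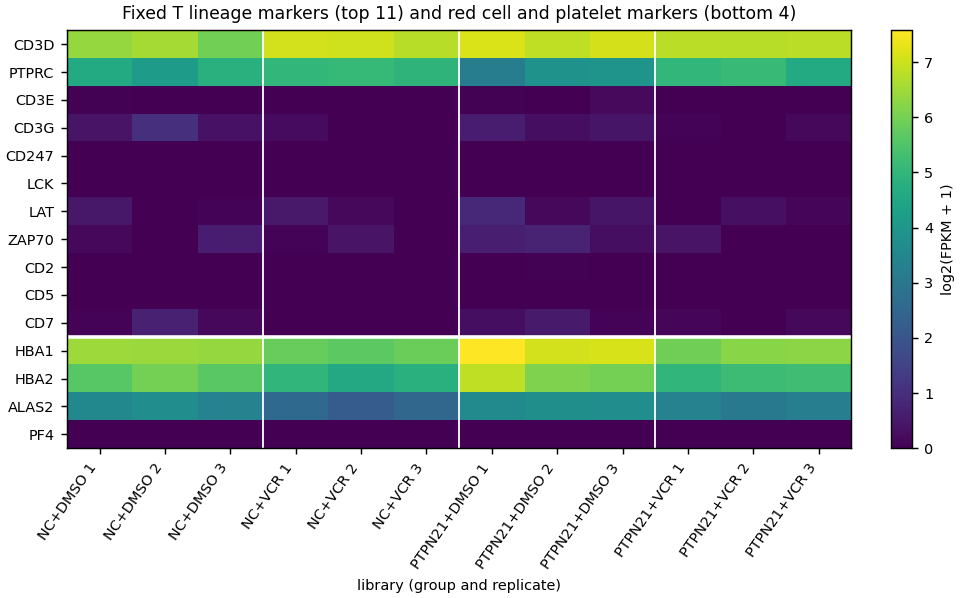
Level on the log2(FPKM + 1) scale, as colour, of 11 T lineage markers above the white line and 4 red cell and platelet markers below it, in each of the 12 libraries. LCK, CD247, CD5 and PF4 are at 0 in every column, and the row of HBA1 is brightest in the 3 PTPN21+DMSO libraries.

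PTPN21 itself checks the other label. The gene (ENSG00000070778; chromosome 14, 88465778 to 88554733, minus strand, GENCODE release 29 on GRCh38) was at 7.93, 10.5 and 8.02 FPKM with DMSO and 6.53, 6.34 and 4.34 FPKM with VCR, against 0.0767, 0.0212 and 0.0934 in NC+DMSO and 0.569, 0.16 and 0.372 in NC+VCR. All 6 libraries labelled PTPN21 were above all 6 labelled NC. Within the PTPN21 arm the VCR libraries lay below the DMSO libraries, but the difference did not pass the test (log2 fold change -0.55, SE 0.22, adjusted p = 0.0758), and the exact two-sided permutation test of 3 against 3 gave 0.1, the smallest p it allows. The difference passed without the intensity trend and with a correction for GC content and gene length. Construct and endogenous transcripts cannot be told apart in these values.

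With VCR, 3351 of the 11423 genes changed (29.3% of those tested, limma, Benjamini-Hochberg adjusted p under 0.05), 1079 higher (9.45%) and 2272 lower (19.9%). The 2 groups of 3 did not overlap for 5782 genes (50.6%). Changes of at least 1 on the log2 scale were seen for 412 of the genes that rose and 1044 of those that fell. The balance depends on the scaling. The median log2 fold change of all genes tested was -0.17 on the deposited scale and -0.02 after median ratio scaling, a shift of the whole distribution, and 1560 genes were then higher and 1502 lower. After quantile normalization 1696 were higher and 1605 lower. The medians of the lists below are therefore read beside -0.17, and their counts beside the 9.45% higher and 19.9% lower of all genes.

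PAEP, which encodes glycodelin, a secreted lipocalin of the endometrium, rose most of all genes tested, by 5.81 on the log2 scale (SE 0.26, adjusted p = 1.05e-07). It was at 1.49, 1.42 and 0.537 FPKM with DMSO and 128, 105 and 117 FPKM with VCR, so the mean was 102 times higher. CD44, the hyaluronan receptor, was nearly absent with DMSO and rose in all 3 libraries, from 0.274, 0.0572 and 0.0516 FPKM to 33.3, 29.3 and 24.5 FPKM (log2 fold change 4.73, SE 0.29, adjusted p = 1.09e-06). PLAT, tissue plasminogen activator, was at 0.471, 0.238 and 0.137 FPKM with DMSO and 29.6, 16.1 and 30.7 FPKM with VCR (log2 fold change 4.32, SE 0.28, adjusted p = 1.29e-06). The groups lay far apart for all 3 genes, whose products act at or outside the cell surface.

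The 15 largest rises among protein-coding genes held a pair of related DNA sensors. AIM2 was at 0.44, 0.378 and 0.344 FPKM with DMSO and 14.1, 27.2 and 24.4 FPKM with VCR (log2 fold change 4.0, SE 0.28, adjusted p = 1.87e-06). IFI16 was at 1.55, 4.26 and 3.06 FPKM with DMSO and 39.4, 42.9 and 38.1 FPKM with VCR (log2 fold change 3.44, SE 0.24, adjusted p = 1.96e-06). CLU, the secreted chaperone clusterin, reached 126, 98.5 and 92.1 FPKM from 6.5, 9.95 and 11.8 FPKM (log2 fold change 3.38, SE 0.44, adjusted p = 0.000204). HBEGF, a ligand of the EGF receptor, was at 0.63, 1.14 and 0.213 FPKM with DMSO and 9.31, 12.2 and 9.5 FPKM with VCR (log2 fold change 2.80, SE 0.27, adjusted p = 2.07e-05). CPA4, a carboxypeptidase, was listed at 0 in each DMSO library and at 14.4, 6.83 and 10.9 FPKM with VCR, so no fold is given for it. The light-sensitive receptor family member OPN3, the calcium-binding protein CALB1, the uridine phosphorylase UPP1, FCRLA and CCDC70 rose by 2.96 to 3.49 on the log2 scale. FCGR1A and FCGR1B, copies of the high-affinity IgG receptor gene, rose as well, and since their sequences are close their reads may have been split between them.

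The 15 largest falls among protein-coding genes were led by PIM2, a serine/threonine kinase that favours survival, at 23.8, 31.9 and 26.1 FPKM with DMSO and 2.22, 0.689 and 1.93 FPKM with VCR (log2 fold change -3.48, SE 0.25, adjusted p = 1.96e-06). FAM178B was the most abundant of them and fell from 1924, 1681 and 1754 FPKM to 208, 175 and 200.4 FPKM (log2 fold change -3.19, SE 0.13, adjusted p = 8.69e-08), so that the DMSO mean was 9.18 times the VCR mean. Several of the others are red cell genes. HBZ, the embryonic zeta-globin chain, was at 368, 304 and 328 FPKM with DMSO and 38, 35.5 and 50 FPKM with VCR (log2 fold change -3.0, SE 0.21, adjusted p = 1.87e-06). KLF1, a zinc finger factor that switches on red cell genes, was at 39.7, 32 and 32.9 FPKM with DMSO and 3.72, 3.72 and 3.55 FPKM with VCR (log2 fold change -2.94, SE 0.20, adjusted p = 1.48e-06). PKLR, the pyruvate kinase of red cells and liver, was at 21.1, 23.1 and 18.9 FPKM with DMSO and 3.49, 2.4 and 1.4 FPKM with VCR (log2 fold change -2.73, SE 0.25, adjusted p = 1.46e-05). The water and glycerol channel AQP10 fell by 3.13 and the GTPase-activating protein ARHGAP22 by 3.24 on the log2 scale. GCAT, NT5DC4, CENPB, CRYBA4 and the histone genes H4C14, H3C14 and H3C15 fell by 2.49 to 2.65. THAP7 was uneven within the DMSO group, at 62.1, 17.7 and 55 FPKM, against 3.24, 2.43 and 3.03 FPKM with VCR (log2 fold change -3.38, SE 0.53, adjusted p = 0.000665). The values of H3C14 and H3C15, whose coding sequences are nearly identical, were equal in each VCR library and cannot be read as separate measurements.

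**Figure D2:**
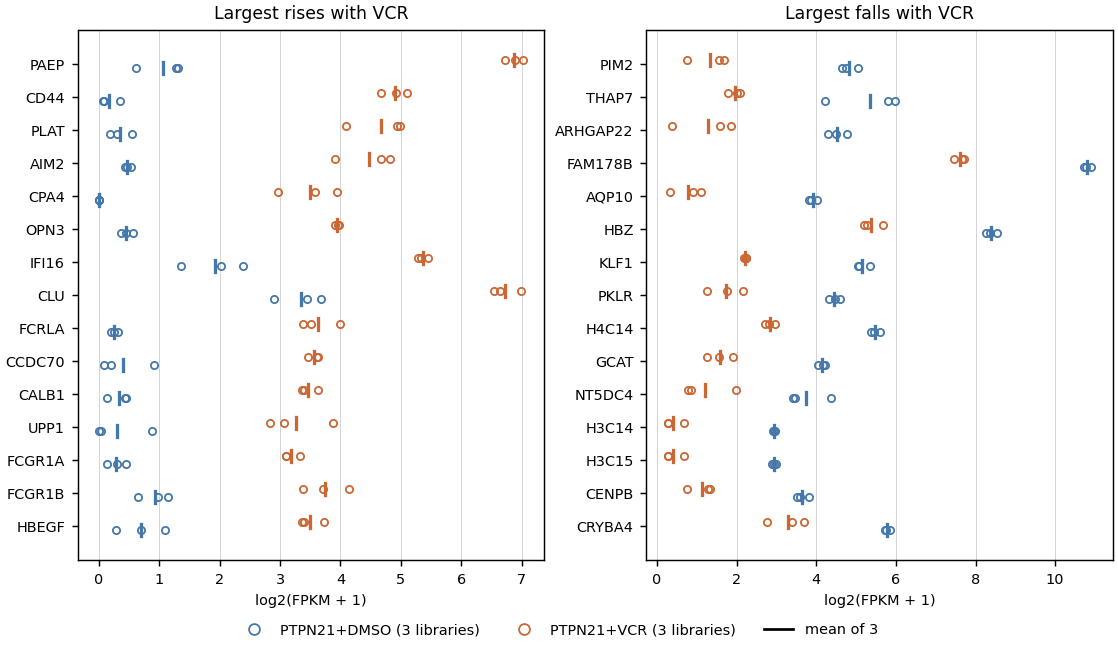
Level on the log2(FPKM + 1) scale (horizontal axis) of the 15 protein-coding genes that rose most and the 15 that fell most with VCR, with 1 circle per library and a bar at the mean of 3. The groups do not overlap for any of them, as the choice required. PAEP lies at the top with a log2 fold change of 5.81, and FAM178B, which fell from 1924, 1681 and 1754 FPKM, is the most abundant of the genes shown.

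KLF1, HBZ and PKLR belong to a wider group. A list of haemoglobin, haem synthesis and red cell genes was written from their known roles after these falls had been seen, so its counts are a description. Of 39 tested members 27 fell (69.2%) and none rose. The median log2 fold change was -1.17, or -0.99 after median ratio scaling, with 23 lower. GATA1, the zinc finger factor that acts with KLF1 in red cell precursors, was at 106, 85 and 85.7 FPKM with DMSO and 19.8, 20.5 and 23.5 FPKM with VCR (log2 fold change -2.07, SE 0.20, adjusted p = 2.36e-05). HEMGN, a nuclear protein of blood precursors, was at 121, 169 and 159 FPKM with DMSO and 28, 29.1 and 24.5 FPKM with VCR (log2 fold change -2.41, SE 0.17, adjusted p = 1.96e-06). AHSP, which keeps free alpha-globin from precipitating, dropped below 1 FPKM in each VCR library, from 8.6, 8.08 and 9.33 to 0.803, 0.795 and 0.925 FPKM (log2 fold change -2.39, SE 0.19, adjusted p = 4.64e-06).

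The red cell membrane and the globins were also represented. The membrane protein gene GYPC was at 368, 355 and 344 FPKM with DMSO and 120.2, 121 and 142 FPKM with VCR (log2 fold change -1.47, SE 0.12, adjusted p = 4.59e-06). HBA1 and HBA2, whose product is the same alpha-globin chain and whose reads may be split between them, fell by 1.12 and 1.17 on the log2 scale. Not every member moved, and ALAS2 was among the 12 that did not pass (log2 fold change -0.48, adjusted p = 0.0556). It passed without the trend, under a filter at 5 FPKM, on the 6 PTPN21 libraries alone and without NC+VCR replicate 2 (smallest adjusted p = 0.0329).

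The list of TAL1 circuit and NOTCH1 axis genes covers factors of T cell leukemia, some of which also act in red cell precursors. Of its 12 tested members 6 fell (50%) and none rose, with a median of -0.76. The NOTCH target HES1 was at 71.3, 80.6 and 73.4 FPKM with DMSO and 26.4, 23.9 and 23.7 FPKM with VCR (log2 fold change -1.57, SE 0.11, adjusted p = 1.66e-06). TAL1, a partner of GATA1, was at 16.5, 11.3 and 13.8 FPKM with DMSO and 4.74, 3.83 and 4.94 FPKM with VCR (log2 fold change -1.42, SE 0.21, adjusted p = 0.000446). LMO2, which bridges them, was at 22.7, 20.5 and 15.9 FPKM with DMSO and 5.45, 3.91 and 6.64 FPKM with VCR (log2 fold change -1.72, SE 0.26, adjusted p = 0.000489). In each of the 3 genes every VCR library lay below every DMSO library.

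Megakaryocyte and platelet genes split. In a list also written after the values were seen, 3 of 10 tested members rose and 6 fell. The transcription factor NFE2 was at 134, 156 and 107 FPKM with DMSO and 31.7, 23.8 and 26.2 FPKM with VCR (log2 fold change -2.23, SE 0.20, adjusted p = 1.03e-05). GFI1B, a repressor of the same lineages, was at 27.4, 31.4 and 29.1 FPKM with DMSO and 5.35, 5.38 and 6 FPKM with VCR (log2 fold change -2.20, SE 0.23, adjusted p = 3.61e-05), and ITGA2B, the platelet integrin, fell by 1.14 on the log2 scale. The tetraspanin CD9 went the other way, at 3.76, 1.49 and 3.02 FPKM with DMSO and 10.8, 13.9 and 15 FPKM with VCR (log2 fold change 1.96, SE 0.25, adjusted p = 0.000186).

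Promoters of the red cell genes that fell were read for the GATA factor core, GATAA, on both strands. The windows run from 250 bases before to 50 bases after the start of the gene in RefSeq (GRCh38.p14), and 7981 of the genes tested have one. GATAA was found in 11 of the 16 promoters available for the 27 genes (68.8%) and in 13.8% of all 7981, and the longer AGATAA, which contains it, in 9 of 16 (56.2%) and 4.76%. The KLF box CCACACCC was in none of the 16 and in 2.72% of all. Red cell genes that did not fall were not counted apart, and the list was written from known roles. The shares therefore describe the genes listed and cannot tie a motif to the response. The 3 promoters below are examples picked from those that hold GATAA, and their genes fell by 1.42 to 2.94 on the log2 scale. Capitals mark GATAA or its reverse complement, and each stretch holds the 250 bases before the start.
KLF1 (chr19:12887202-12887451, minus strand): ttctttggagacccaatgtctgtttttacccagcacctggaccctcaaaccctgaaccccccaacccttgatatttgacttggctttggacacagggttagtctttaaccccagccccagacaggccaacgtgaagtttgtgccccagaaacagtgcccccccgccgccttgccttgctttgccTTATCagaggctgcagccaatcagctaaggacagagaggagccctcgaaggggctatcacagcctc
PKLR (chr1:155301439-155301688, minus strand): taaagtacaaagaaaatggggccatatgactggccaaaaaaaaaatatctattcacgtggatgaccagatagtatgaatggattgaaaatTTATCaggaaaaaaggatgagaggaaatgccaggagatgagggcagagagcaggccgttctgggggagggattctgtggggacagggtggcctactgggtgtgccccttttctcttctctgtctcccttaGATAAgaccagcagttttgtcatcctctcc
TAL1 (chr1:47232336-47232585, minus strand): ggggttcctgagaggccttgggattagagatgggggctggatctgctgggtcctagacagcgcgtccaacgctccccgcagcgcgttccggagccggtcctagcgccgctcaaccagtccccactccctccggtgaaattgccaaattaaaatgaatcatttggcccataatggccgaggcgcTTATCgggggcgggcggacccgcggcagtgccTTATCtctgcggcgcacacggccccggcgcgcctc
A match is a run of letters and not a measured site.

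Keratin genes stood on the other side. Keratins and vimentin are intermediate filament proteins. In a list of keratin and cornified envelope genes, written after the values were seen, 7 of 8 tested members rose (87.5%) and none fell (median 1.42). The list has 27 genes in the table, and the others did not pass the filter. KRT8 was at 319, 273 and 287 FPKM with DMSO and 945, 710.4 and 1186 FPKM with VCR (log2 fold change 1.66, SE 0.19, adjusted p = 7.58e-05). Its partner KRT18 was at 187, 169 and 173 FPKM with DMSO and 422, 405 and 368 FPKM with VCR (log2 fold change 1.17, SE 0.18, adjusted p = 0.000518). KRT17 was near 0 with DMSO, at 0, 0 and 0.0278 FPKM, and reached 6.76, 6.11 and 4.49 FPKM (log2 fold change 2.73, SE 0.22, adjusted p = 5.91e-06). It passed the filter only through its VCR values, so it could be tested only as a gene that rose. The same held for a gene of the outer skin layer, since SPRR2D, a cornified envelope protein, was at 2.11, 1 and 1.18 FPKM with DMSO and 12.1, 17.1 and 14.4 FPKM with VCR (log2 fold change 2.69, SE 0.32, adjusted p = 0.000106). VIM, which encodes vimentin, rose from 333, 275 and 283 FPKM to 1320.2, 1410.3 and 1516 FPKM (log2 fold change 2.25, SE 0.12, adjusted p = 3.56e-07), with a VCR mean 4.77 times the DMSO mean.

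Vimentin was counted in the list of actin cytoskeleton and SRF genes, of which 9 of 36 tested members rose and 3 fell (median 0.07 beside -0.17). ACTG1, cytoplasmic gamma-actin, was at 177, 203 and 197 FPKM with DMSO and 476, 543 and 534 FPKM with VCR (log2 fold change 1.42, SE 0.11, adjusted p = 3.49e-06). TPM4, a tropomyosin that lies along actin filaments, rose from uneven DMSO values of 47.9, 107 and 116 FPKM to 249, 273 and 267 FPKM (log2 fold change 1.63, SE 0.27, adjusted p = 0.00096). VCL, vinculin, which ties actin to adhesion sites, was at 16.4, 19.4 and 18.5 FPKM with DMSO and 35.4, 37.4 and 29.6 FPKM with VCR (log2 fold change 0.88, SE 0.17, adjusted p = 0.00265).

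The tubulins are the target of the drug. Cells are known to degrade tubulin mRNA when free tubulin dimers accumulate. Of 8 tested beta-tubulin genes 3 rose and 4 fell, and the counts were the same under TPM, median ratio and quantile scaling. The main isotype TUBB was at 355, 357 and 341 FPKM with DMSO and 181, 186 and 178 FPKM with VCR (log2 fold change -0.95, SE 0.10, adjusted p = 3.61e-05). TUBB4B was at 82.8, 84.5 and 86.6 FPKM with DMSO and 37.7, 35.8 and 39.1 FPKM with VCR (log2 fold change -1.15, SE 0.30, adjusted p = 0.014), without a call when no filter on low values was used (adjusted p = 0.0575). The platelet isotype TUBB1 dropped from 3.14, 3.63 and 2.83 FPKM to 0.81, 0.0314 and 0.349 FPKM (log2 fold change -1.62, SE 0.27, adjusted p = 0.00102). The libraries of each group were close together for TUBB and TUBB4B, and the 3 genes fell.

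The isotype 2 genes went the other way. TUBB2B was at 9.31, 9.99 and 8.24 FPKM with DMSO and 44.3, 45 and 47.8 FPKM with VCR (log2 fold change 2.20, SE 0.14, adjusted p = 1.18e-06). TUBB2A was at 17.2, 14.4 and 12.6 FPKM with DMSO and 58, 62 and 64.6 FPKM with VCR (log2 fold change 2.0, SE 0.16, adjusted p = 4.64e-06). These are close copies that may share reads. The other calls were less firm. TUBB3 rose by 1.95 on the log2 scale, without a call when PTPN21+DMSO replicate 1, PTPN21+DMSO replicate 3 or PTPN21+VCR replicate 2 was left out or when no filter on low values was used (largest adjusted p = 0.0757). TUBB4A fell by 0.90, without a call when PTPN21+DMSO replicate 2, PTPN21+VCR replicate 1 or PTPN21+VCR replicate 2 was left out (largest adjusted p = 0.0611). With the GC content and length correction it was at -0.48 (adjusted p = 0.123, or 0.17 with the replicate block as well).

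Of 5 alpha-tubulin genes only TUBA1B passed the test. It was at 426, 390.2 and 410.3 FPKM with DMSO and 189, 191 and 100.2 FPKM with VCR (log2 fold change -1.41, SE 0.30, adjusted p = 0.00471), with the third VCR library lower than the other two. TUBA1C was at 90.9, 95.2 and 95.9 FPKM with DMSO and 97.4, 75.9 and 82 FPKM with VCR, its groups overlapped, and the sign of its difference turned under median ratio and quantile scaling (adjusted p = 0.482 as deposited). The genes that fold tubulin and load it split evenly, 4 higher and 4 lower of 23 tested, or 5 and 2 with median ratio scaling. PFDN2, a prefoldin subunit, and the cofactor TBCA rose by 0.65 and 0.70 on the log2 scale. CCT7, a subunit of the ring chaperonin, was at 282, 286 and 277 FPKM with DMSO and 192, 188 and 188 FPKM with VCR (log2 fold change -0.57, SE 0.09, adjusted p = 0.000562).

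Genes of mitosis were more often higher than lower. Of 25 tested mitotic cyclins, kinases and regulators 8 rose (32.0%) and 2 fell, and their median was 0.15. CCNB1, the cyclin that brings cells into mitosis, was at 72.3, 69.2 and 52.7 FPKM with DMSO and 124, 135 and 137 FPKM with VCR (log2 fold change 1.03, SE 0.14, adjusted p = 0.000221). CCNB2 was at 69.2, 67.8 and 73.9 FPKM with DMSO and 112, 119 and 119 FPKM with VCR (log2 fold change 0.72, SE 0.11, adjusted p = 0.00054). The mitotic kinases showed the same order of groups. AURKA was at 36.3, 61.6 and 50.3 FPKM with DMSO and 141, 169.9 and 114 FPKM with VCR (log2 fold change 1.51, SE 0.22, adjusted p = 0.000425). PLK1 was at 20.9, 30.9 and 23.5 FPKM with DMSO and 47.8, 66.8 and 48.7 FPKM with VCR (log2 fold change 1.09, SE 0.17, adjusted p = 0.00064). CDK1, the partner of cyclin B, overlapped between the groups, at 61.6, 67.7 and 59.3 FPKM with DMSO and 69.5, 68.5 and 64.1 FPKM with VCR (adjusted p = 0.53).

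Kinetochore and mitotic motor genes gave 14 higher of 38 tested (36.8%) and 4 lower, with a median of 0.11. HMMR, which helps to set up spindle poles, was at 59.3, 79.6 and 68.4 FPKM with DMSO and 199, 228 and 173 FPKM with VCR (log2 fold change 1.52, SE 0.17, adjusted p = 6.79e-05). The kinesin KIF20A, which acts in cytokinesis, was at 16.4, 13.6 and 15.5 FPKM with DMSO and 32.8, 35.4 and 30.8 FPKM with VCR (log2 fold change 1.08, SE 0.14, adjusted p = 0.000217). CENPM, a centromere protein, went against them and fell from 30.4, 30.1 and 26.7 to 3.64, 5.28 and 5.69 FPKM (log2 fold change -2.37, SE 0.24, adjusted p = 2.55e-05).

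Spindle checkpoint and anaphase-promoting complex genes were balanced, 5 higher and 5 lower of 26, with a median of -0.08 that turned to 0.09 with median ratio scaling and to 0.08 after quantile normalization. CDC20, the activator that the checkpoint restrains, was at 24.4, 24.7 and 23 FPKM with DMSO and 49, 49.5 and 51.6 FPKM with VCR (log2 fold change 1.03, SE 0.13, adjusted p = 0.000136). PTTG1, the securin that the complex destroys, was at 354, 296 and 301 FPKM with DMSO and 520.0, 578 and 550.1 FPKM with VCR (log2 fold change 0.80, SE 0.16, adjusted p = 0.00301). Subunits of the complex went both ways. ANAPC2 was at 6.11, 5.65 and 5.59 FPKM with DMSO and 1.59, 0.932 and 1.52 FPKM with VCR (log2 fold change -1.54, SE 0.25, adjusted p = 0.000942). ANAPC13 and ANAPC15 fell by 0.92 and 0.83 on the log2 scale, and ANAPC1 by 0.64, without a call after median ratio scaling (adjusted p = 0.0533). ANAPC5 rose by 0.57, without a call when no filter on low values was used (adjusted p = 0.0703), when PTPN21+DMSO replicate 1 or PTPN21+VCR replicate 2 was left out (largest adjusted p = 0.103), or with the GC content and length correction (log2 fold change 0.31, adjusted p = 0.152).

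The 27 genes of these 3 mitotic lists that rose have 25 promoters in the RefSeq table. Their promoters are known for the cell cycle homology region, TTTGAA, and for the NF-Y box, CCAAT, so both were searched on both strands. TTTGAA was in 15 of the 25 (60%) and in 9.74% of all 7981 promoters, and CCAAT in 19 (76.0%) and in 38% of all. Among the 11 genes of the same lists that fell, 9 have a promoter, of which 1 held TTTGAA and 2 held CCAAT. The promoters of CDC20, PLK1 and CCNB2 are shown because each holds both motifs. Capitals mark either motif on either strand in the 250 bases before the start.
CDC20 (chr1:43358731-43358980, plus strand): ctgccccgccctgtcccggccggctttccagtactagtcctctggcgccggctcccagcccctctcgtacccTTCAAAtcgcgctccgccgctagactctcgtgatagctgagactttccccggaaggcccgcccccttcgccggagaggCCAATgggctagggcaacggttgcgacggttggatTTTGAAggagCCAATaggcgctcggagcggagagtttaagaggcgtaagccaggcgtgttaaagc
PLK1 (chr16:23678639-23678888, plus strand): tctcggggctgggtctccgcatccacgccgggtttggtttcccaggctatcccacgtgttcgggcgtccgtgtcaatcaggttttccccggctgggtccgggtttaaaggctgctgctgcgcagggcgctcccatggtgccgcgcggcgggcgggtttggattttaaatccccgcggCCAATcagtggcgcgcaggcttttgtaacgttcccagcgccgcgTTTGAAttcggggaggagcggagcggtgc
CCNB2 (chr15:59104896-59105145, plus strand): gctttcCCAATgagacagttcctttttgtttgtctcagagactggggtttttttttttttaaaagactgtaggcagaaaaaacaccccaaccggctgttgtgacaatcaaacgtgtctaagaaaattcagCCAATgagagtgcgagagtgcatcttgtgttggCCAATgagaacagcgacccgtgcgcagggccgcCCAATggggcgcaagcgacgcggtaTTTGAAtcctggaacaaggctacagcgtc
In PLK1 and CCNB2 the first base of TTTGAA lies at -29 from the start of the gene. In CDC20 one copy lies at -65 and one on the other strand at -178.

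Of 21 tested G1 cyclins, CDK inhibitors, E2F and RB genes 5 fell (23.8%, near the 19.9% of all genes) and 1 rose. CCND1, cyclin D1, was at 11.6, 13.8 and 13.4 FPKM with DMSO and 3.09, 3.29 and 3.04 FPKM with VCR (log2 fold change -1.75, SE 0.17, adjusted p = 2.17e-05). Its kinase CDK4 was at 39.5, 43.2 and 41.2 FPKM with DMSO and 16.9, 14.2 and 14.3 FPKM with VCR (log2 fold change -1.39, SE 0.18, adjusted p = 0.000185). CDKN1A, the inhibitor p21, was the 1 that rose, from 0.475, 0.554 and 1.06 FPKM to 2.19, 3.84 and 4.18 FPKM (log2 fold change 1.36, SE 0.28, adjusted p = 0.00333), and stayed low in level.

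S phase genes were more often lower. Of 54 genes of DNA replication and nucleotide synthesis 25 fell (46.3%) and 3 rose, with a median of -0.50. FEN1, the flap endonuclease, was at 104, 104 and 97.8 FPKM with DMSO and 42, 40.7 and 37.5 FPKM with VCR (log2 fold change -1.33, SE 0.13, adjusted p = 2.36e-05). The replicative helicase was represented by GINS2 and MCM3. GINS2 was at 30.2, 26.7 and 27.2 FPKM with DMSO and 11.8, 9.5 and 9.74 FPKM with VCR (log2 fold change -1.36, SE 0.15, adjusted p = 6.66e-05). MCM3 was at 269, 246 and 245 FPKM with DMSO and 146, 139.7 and 147 FPKM with VCR (log2 fold change -0.81, SE 0.10, adjusted p = 0.000116). With median ratio scaling 19 genes of the list fell and 4 rose.

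The E2F letters TTCCCGC were in 10 of the 22 promoters available for the 25 replication genes that fell (45.5%) and in 10.8% of all 7981. Replication genes that did not fall were not counted apart, so the share cannot tie the motif to the response. GINS2 and MCM3 are shown with this motif in capitals, on either strand.
GINS2 (chr16:85688955-85689204, minus strand): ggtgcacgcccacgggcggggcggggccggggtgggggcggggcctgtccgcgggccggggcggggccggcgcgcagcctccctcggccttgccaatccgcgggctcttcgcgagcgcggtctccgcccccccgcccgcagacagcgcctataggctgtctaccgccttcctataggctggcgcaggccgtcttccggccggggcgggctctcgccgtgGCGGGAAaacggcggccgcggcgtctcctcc
MCM3 (chr6:52284743-52284992, minus strand): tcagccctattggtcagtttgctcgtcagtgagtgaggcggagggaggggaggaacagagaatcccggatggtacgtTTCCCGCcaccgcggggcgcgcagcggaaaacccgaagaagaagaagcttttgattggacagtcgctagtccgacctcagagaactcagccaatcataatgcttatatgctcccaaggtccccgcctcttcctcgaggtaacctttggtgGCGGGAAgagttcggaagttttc

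Replication-dependent histone genes are made in S phase. Of 39 tested 22 fell (56.4%) and none rose, with a median of -0.90, or -0.72 after median ratio scaling. H1-2, a linker histone and the most abundant of those named here, was at 1513, 1269 and 1342 FPKM with DMSO and 352, 348 and 376 FPKM with VCR (log2 fold change -1.93, SE 0.14, adjusted p = 2.14e-06). H2AC6 was at 124, 127 and 121 FPKM with DMSO and 35.5, 35.9 and 32.9 FPKM with VCR (log2 fold change -1.81, SE 0.10, adjusted p = 5.62e-07). Core histone genes come in near-identical copies, so single members are uncertain.

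**Figure D3:**
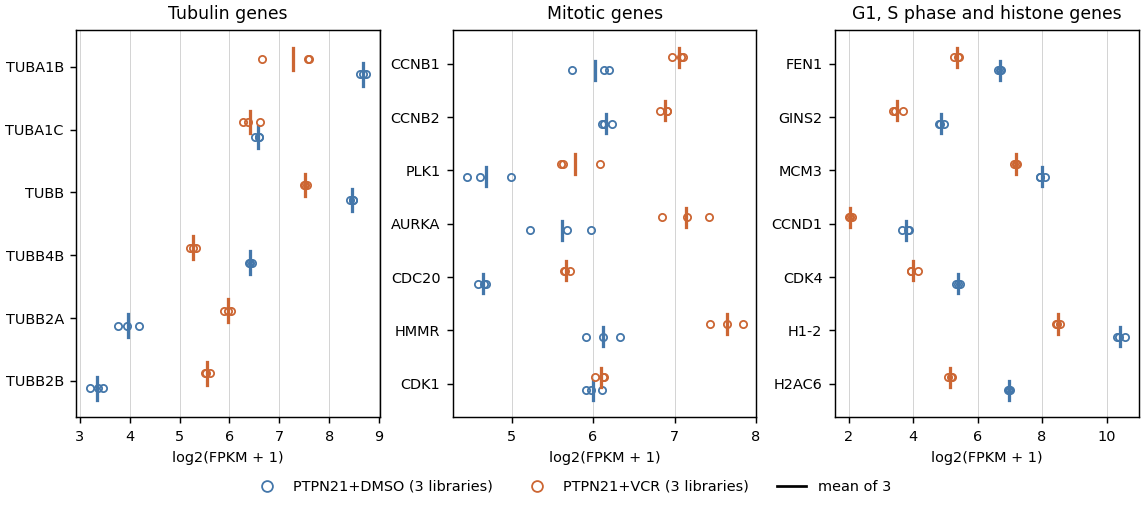
Level on the log2(FPKM + 1) scale (horizontal axis) of tubulin genes (left), mitotic genes (middle) and G1, S phase and histone genes (right), with 1 circle per library and a bar at the mean of 3. TUBB and TUBB4B lie lower with VCR while TUBB2A and TUBB2B lie higher, CDK1 overlaps, and each gene of the right panel lies lower with VCR.

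Apoptosis genes were examined because the study measured cell death. In the BCL2 family 2 of 11 tested genes rose and 5 fell, with a median of -0.84. PMAIP1 (NOXA), which promotes death by binding MCL1, was at 12.6, 17.1 and 15.3 FPKM with DMSO and 64, 70.9 and 50 FPKM with VCR (log2 fold change 1.96, SE 0.17, adjusted p = 1.16e-05). Falls were seen on both sides of the family. The survival gene BCL2L1 (BCL-XL) was at 20.8, 27.9 and 23.3 FPKM with DMSO and 7.1, 7.34 and 9.06 FPKM with VCR (log2 fold change -1.50, SE 0.30, adjusted p = 0.00283). BAD, which promotes death, was at 34.3, 31 and 32.6 FPKM with DMSO and 18.2, 10.5 and 13.1 FPKM with VCR (log2 fold change -1.20, SE 0.20, adjusted p = 0.00111). BIK, of the same kind, went from 3.21, 2.76 and 1.66 FPKM to under 1 FPKM in each VCR library (log2 fold change -1.64, SE 0.36, adjusted p = 0.00485). BCL2 was under 1 FPKM in all 6 libraries and was not tested. BAX was at 5.85, 5.12 and 8.62 FPKM with DMSO and 4.12, 6.74 and 6.62 FPKM with VCR (adjusted p = 0.718), and the sign of its difference turned under median ratio and quantile scaling.

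In the list of caspases, apoptosome genes and their inhibitors 2 of 18 rose and 5 fell, or 2 and 3 with median ratio scaling. CYCS, cytochrome c, was at 144, 143 and 141 FPKM with DMSO and 86, 76.2 and 85.3 FPKM with VCR (log2 fold change -0.78, SE 0.12, adjusted p = 0.000518). The mitochondrial protease HTRA2 was at 33.1, 28.8 and 25.6 FPKM with DMSO and 14.6, 12.3 and 11.7 FPKM with VCR (log2 fold change -1.12, SE 0.17, adjusted p = 0.000537). PARP1, which caspases cleave, was at 94.9, 118 and 107 FPKM with DMSO and 87.7, 98.2 and 79.8 FPKM with VCR (adjusted p = 0.117). It passed with the GC content and length correction (log2 fold change -0.33, adjusted p = 0.0307, or 0.0484 with the replicate block as well). These values are of mRNA and say nothing of cleavage. Death receptor genes gave 1 higher and 2 lower of 14.

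Among 21 tested p53 target genes 2 rose and 3 fell, while under median ratio and quantile scaling 7 rose and 3 fell. PMAIP1 and CDKN1A were the 2 that rose. FDXR, a mitochondrial reductase, was at 19, 19.7 and 15.7 FPKM with DMSO and 6.28, 6.83 and 7.24 FPKM with VCR (log2 fold change -1.29, SE 0.28, adjusted p = 0.00441). GADD45A, a stress protein that binds PCNA and acts on the JNK and p38 kinases, fell from 75.7, 95.8 and 93.2 to 57.5, 52.2 and 61.8 FPKM (log2 fold change -0.61, SE 0.14, adjusted p = 0.00645).

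In the list of GADD45, JNK and p38 genes, which holds GADD45A too, 4 of 21 rose and 3 fell. The phosphatase DUSP1, which switches these kinases off, was at 1.28, 1.85 and 2.01 FPKM with DMSO and 11.8, 9.28 and 12.6 FPKM with VCR (log2 fold change 2.17, SE 0.23, adjusted p = 3.61e-05). MAPK12, a p38 kinase, was at 11, 9.22 and 8.89 FPKM with DMSO and 1.8, 3.5 and 2.97 FPKM with VCR (log2 fold change -1.54, SE 0.23, adjusted p = 0.000538). The JNK genes did not pass. MAPK8 was at 7.31, 6.43 and 4.6 FPKM with DMSO and 4.37, 5.68 and 4.94 FPKM with VCR (adjusted p = 0.702). MAPK9 was at 7.08, 7.06 and 6.4 FPKM with DMSO and 6.44, 4.99 and 5.39 FPKM with VCR (adjusted p = 0.424).

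AP-1 and immediate early genes gave 7 higher (36.8%) and 1 lower of 19, with a median of 0.34. JUN, an AP-1 subunit and a JNK substrate, was at 19.3, 22.5 and 20.4 FPKM with DMSO and 80.9, 73.2 and 78.2 FPKM with VCR (log2 fold change 1.85, SE 0.16, adjusted p = 9.28e-06), with a VCR mean 3.74 times the DMSO mean. The DMSO and VCR libraries of JUN lay far apart. KLF6 was at 6.03, 6.01 and 5.26 FPKM with DMSO and 23.4, 27.6 and 20.5 FPKM with VCR (log2 fold change 1.87, SE 0.20, adjusted p = 4.63e-05). ATF3, a stress-induced partner of JUN, was at 26.7, 21.1 and 21.6 FPKM with DMSO and 50.2, 54.2 and 46.1 FPKM with VCR (log2 fold change 1.09, SE 0.13, adjusted p = 0.000134). The 1 that fell was PPP1R15A, which restores translation after stress, by 0.65 on the log2 scale, or by 0.33 and without a call when length, GC content and the replicate block were all in the fit (adjusted p = 0.0628). The AP-1 motif TGACTCA and the CRE TGACGTCA were in none of the 5 promoters available for the 7 genes that rose, and in 2.73% and 3.83% of all 7981.

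Among ATF4 targets and tRNA synthetases 2 of 37 rose and 11 fell, with a median of -0.24. These genes are known to rise when amino acids run short. DDIT4, an inhibitor of mTOR signalling, was at 353, 412 and 364 FPKM with DMSO and 190.3, 179.8 and 181 FPKM with VCR (log2 fold change -1.03, SE 0.11, adjusted p = 6.14e-05). SLC3A2, the heavy chain of amino acid transporters, was at 60.1, 55.9 and 61.1 FPKM with DMSO and 34.9, 38.4 and 36.4 FPKM with VCR (log2 fold change -0.68, SE 0.13, adjusted p = 0.00215). ATF4 itself did not pass (adjusted p = 0.302). It was at 29.8, 32.7 and 329.6 FPKM with DMSO and 26, 26.5 and 29.1 FPKM with VCR, so that 1 DMSO library stood far above the rest of the PTPN21 libraries. That high value was near most NC libraries. ATF4 was at 26.3, 302 and 246 FPKM in NC+DMSO and 314, 312 and 336 FPKM in NC+VCR. The cause of this split was not tested.

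**Figure D4:**
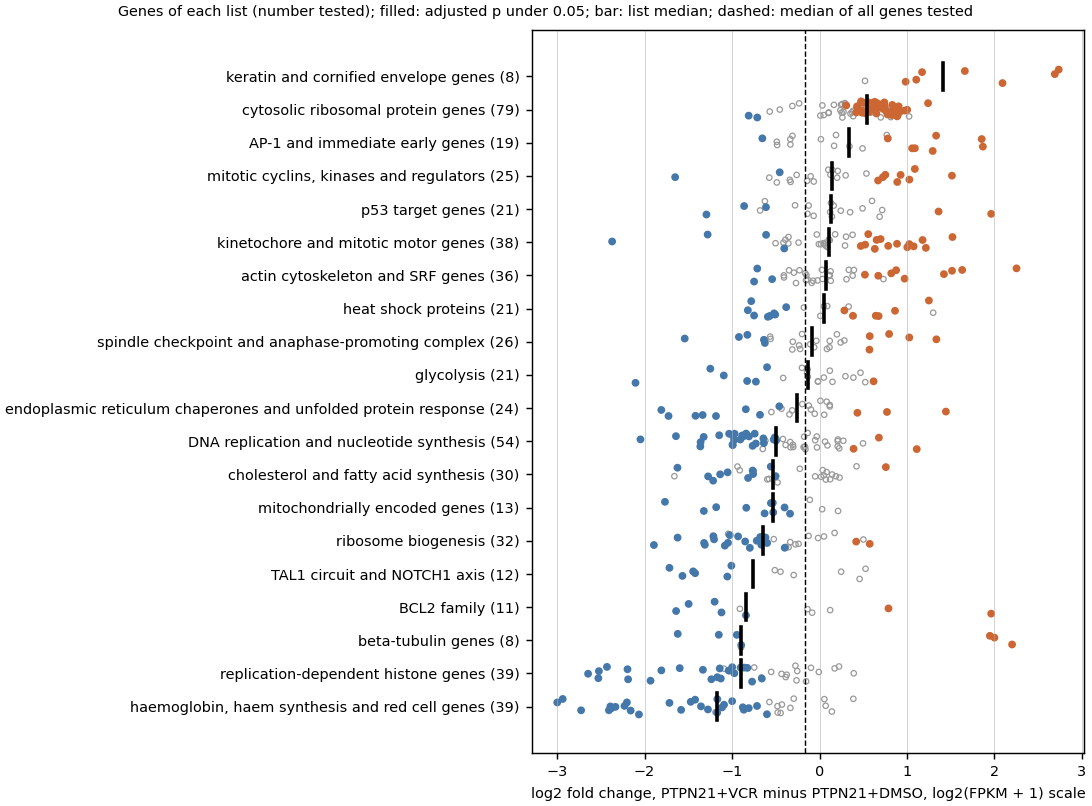
Log2 fold change with VCR (horizontal axis) of every tested gene in 20 lists, 1 circle per gene, filled where the adjusted p was under 0.05, with a black bar at the list median and a dashed line at the median of all genes tested, -0.17. Red cell and histone genes lie to the left, keratin and cytosolic ribosomal protein genes to the right, and beta-tubulin genes on both sides.

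Of 24 genes of endoplasmic reticulum chaperones and the unfolded protein response 8 fell (33.3%) and 3 rose. CALR, the calcium-binding chaperone calreticulin, was at 1166, 1184 and 1257 FPKM with DMSO and 357, 379 and 352 FPKM with VCR (log2 fold change -1.73, SE 0.11, adjusted p = 1.18e-06). PDIA4, which forms disulfide bonds, was at 216, 227 and 215 FPKM with DMSO and 62.9, 66.4 and 56.7 FPKM with VCR (log2 fold change -1.81, SE 0.11, adjusted p = 1.18e-06). SDF2L1, a partner of the chaperones, was at 392, 333 and 353 FPKM with DMSO and 139, 145 and 140.4 FPKM with VCR (log2 fold change -1.34, SE 0.14, adjusted p = 4.33e-05). For each of the 3, every VCR library lay below every DMSO library. The ER stress element, which starts with a CCAAT box and was searched on both strands, was in 2 of the 8 promoters of the genes that fell and in 12 of all 7981 (0.15%). Members of the list that did not fall were not counted apart here either. CALR is one of the 2, with the element in capitals on the other strand.
CALR (chr19:12938359-12938608, plus strand): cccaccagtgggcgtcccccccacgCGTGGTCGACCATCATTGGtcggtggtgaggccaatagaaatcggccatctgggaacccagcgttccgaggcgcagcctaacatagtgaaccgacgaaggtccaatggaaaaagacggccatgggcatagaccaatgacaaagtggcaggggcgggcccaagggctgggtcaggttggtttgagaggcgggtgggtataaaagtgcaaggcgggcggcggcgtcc

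Heat shock proteins of the cytosol and mitochondria were mixed, 6 higher and 8 lower of 21, or 6 and 5 with median ratio scaling. HSPA8, the constitutive HSP70, was at 665, 524 and 647 FPKM with DMSO and 1542, 1933 and 1020.4 FPKM with VCR (log2 fold change 1.25, SE 0.20, adjusted p = 0.000795). FKBP4, a partner of HSP90, was at 75.5, 87.7 and 82.8 FPKM with DMSO and 49.5, 44.3 and 44.2 FPKM with VCR (log2 fold change -0.82, SE 0.11, adjusted p = 0.000204). Proteasome subunits gave 4 higher and 7 lower of 33, and 6 and 4 with median ratio scaling.

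Protein synthesis genes divided by role. Of 79 cytosolic ribosomal protein genes 45 rose (57.0%) and 2 fell, with a median of 0.55. With median ratio scaling 53 rose, and after quantile normalization 35 rose and 4 fell. RPS18 was at 906, 838 and 842 FPKM with DMSO and 1589, 1771 and 1721 FPKM with VCR (log2 fold change 0.97, SE 0.11, adjusted p = 8.45e-05). RPLP1, part of the stalk of the large subunit, was at 1578, 1600.4 and 1612 FPKM with DMSO and 2877, 3008 and 3086 FPKM with VCR (log2 fold change 0.90, SE 0.11, adjusted p = 0.000163). These genes have many processed copies that can take up reads.

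Genes that build ribosomes went down instead, 18 of 32 lower (56.2%) and 2 higher, with a median of -0.64. UBTF, a factor of RNA polymerase I, was at 43, 45.9 and 50 FPKM with DMSO and 14.3, 17.5 and 11.7 FPKM with VCR (log2 fold change -1.62, SE 0.16, adjusted p = 2.97e-05). PES1, which acts in making the large subunit, was at 106, 113 and 102 FPKM with DMSO and 45.6, 38.4 and 42.7 FPKM with VCR (log2 fold change -1.32, SE 0.15, adjusted p = 9.00e-05). Hosts of small nucleolar RNAs were split, 5 higher and 3 lower of 15. GAS5, one of them, was at 142, 136 and 148 FPKM with DMSO and 214, 213 and 209 FPKM with VCR (log2 fold change 0.57, SE 0.12, adjusted p = 0.00409).

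The 13 mitochondrially encoded protein genes held 10 that fell (76.9%) and none that rose, with a median of -0.54, though with median ratio scaling 5 fell and 1 rose. The mitochondrial ribosomal RNA genes are not in this list, and both rose. MT-CYB, cytochrome b, was at 2116, 1957 and 2153 FPKM with DMSO and 839, 851 and 796 FPKM with VCR (log2 fold change -1.32, SE 0.11, adjusted p = 6.33e-06). Of 60 nuclear genes of the respiratory chain 15 fell (25%) and 4 rose, or 8 and 5 with median ratio scaling, so this list was near the background. CYC1, cytochrome c1, was at 49.2, 59.1 and 49.6 FPKM with DMSO and 20.4, 16.4 and 19.1 FPKM with VCR (log2 fold change -1.45, SE 0.16, adjusted p = 5.69e-05). In glycolysis 6 of 21 fell (28.6%) and 1 rose, with a median of -0.13 that turned to 0.05 with median ratio scaling. ALDOC, an aldolase, was at 26.8, 30.5 and 32 FPKM with DMSO and 5.74, 6.31 and 6.38 FPKM with VCR (log2 fold change -2.10, SE 0.24, adjusted p = 7.75e-05).

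Cholesterol and fatty acid synthesis gave 10 lower (33.3%) and 1 higher of 30, with a median of -0.53. SQLE, squalene epoxidase, was at 30.6, 39 and 34.1 FPKM with DMSO and 20.1, 20.5 and 16.8 FPKM with VCR (log2 fold change -0.82, SE 0.14, adjusted p = 0.000964). Antioxidant enzymes gave 2 higher and 5 lower of 20, with a median of -0.13 that turned to 0.06 under median ratio scaling. TXNIP, which binds thioredoxin, was at 1.83, 3.47 and 1.84 FPKM with DMSO and 11.2, 14 and 10.5 FPKM with VCR (log2 fold change 1.96, SE 0.23, adjusted p = 8.45e-05). Lysosome and autophagy genes gave 5 higher and 2 lower of 21. MAP1LC3B, a coat protein of autophagosomes, rose from uneven DMSO values of 9.13, 35.1 and 13.2 FPKM to 95.4, 91.2 and 86.5 FPKM (log2 fold change 2.41, SE 0.49, adjusted p = 0.00346).

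Few immune genes were measurable. Of 35 T cell receptor, signalling and T lineage genes 11 were tested, of which 3 rose and 3 fell. PTPRC was at 8.07, 13.4 and 14.2 FPKM with DMSO and 31.4, 33.1 and 23.8 FPKM with VCR (log2 fold change 1.26, SE 0.22, adjusted p = 0.00154). The difference of CD3D did not pass (adjusted p = 0.244). Of 12 NF-kB genes 4 fell and 1 rose. Interferon-stimulated and nucleic acid sensing genes gave 1 higher and 5 lower of 15, or 2 and 2 with median ratio scaling. The DNA sensor genes AIM2 and IFI16, which rose, are not in this list.

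VCR is carried out of cells by ABCB1, the efflux pump P-glycoprotein. It was low in the DMSO libraries and rose, at 1, 0.0345 and 0.294 FPKM with DMSO and 4.03, 4.79 and 2.77 FPKM with VCR (log2 fold change 1.79, SE 0.27, adjusted p = 0.000506). On the deposited scale it was the only one of 7 tested efflux transporters that passed, and with median ratio and quantile scaling ABCB4 passed as well (adjusted p = 0.0234 and 0.0137).

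The response was then set beside that of the NC cells, where 4192 genes changed (36.7%), 914 of them higher (21.8% of those called). NC+VCR and NC+DMSO share no library with the PTPN21 groups. PAEP had a log2 fold change of 5.81 in the PTPN21 cells and 6.36 in the NC cells. VIM had 2.25 and 2.58, and KLF1 -2.94 and -3.0. TUBB had -0.95 and -0.88, and CCNB1 1.03 and 1.21. The median of all genes tested was -0.17 in the PTPN21 cells and -0.36 in the NC cells. The median of the red cell list was -1.17 and -1.12, that of the histone list -0.90 and -1.01, and that of the ribosomal protein list 0.55 and 0.71. Not every list median was alike in the 2 lines. That of the beta-tubulin list was -0.90 in PTPN21 cells and -0.20 in NC cells, and that of the BCL2 family -0.84 and -0.45. The sign differed for the GADD45, JNK and p38 list (0.25 and -0.28) and the mitotic cyclin and kinase list (0.15 and -0.08). It also differed for the kinetochore list (0.11 and -0.16), the tubulin folding list (0.07 and -0.14) and the lysosome and autophagy list (0.14 and -0.24). In both lines each of these medians lay above that of all genes tested, -0.17 and -0.36. No member of these lists was among the genes whose responses differed in the test below.

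The test of the difference itself called 12 genes (0.105% of 11423), with 1616 at an unadjusted p under 0.05. IER2, an immediate early gene, rose in PTPN21 cells, at 2.66, 6.16 and 3.97 FPKM with DMSO and 12.5, 12.2 and 10.7 FPKM with VCR (log2 fold change 1.33, SE 0.26, adjusted p = 0.00261), and fell in NC cells, from 15.6, 21.3 and 23.6 FPKM to 5.38, 3.16 and 4.61 FPKM. The difference of the 2 responses was 3.31 on the log2 scale (SE 0.37, adjusted p = 0.00203), and it passed in all 23 alternatives that allow the test. FBXW7, the substrate receptor of a ubiquitin ligase, overlapped in PTPN21 cells, at 7.64, 7.92 and 6.1 FPKM with DMSO and 9.87, 7.35 and 9.05 FPKM with VCR, and went from 17.4, 14.2 and 23.1 to 3.55, 4.37 and 5.25 FPKM in NC cells (difference 2.07, SE 0.30, adjusted p = 0.0247). NGRN, a factor of mitochondrial ribosomes, fell in both lines. It was at 203, 209 and 214 FPKM with DMSO and 54.4, 55.5 and 65.2 FPKM with VCR in PTPN21 cells, against 122, 127 and 122 and 72.8, 73.3 and 99.8 FPKM in NC cells (difference -1.22, SE 0.18, adjusted p = 0.0277).

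COX4I1, a subunit of cytochrome oxidase, was at 642, 545 and 568 FPKM with DMSO and 639, 694 and 691 FPKM with VCR, and at 221, 264 and 285 and 605, 629 and 588 FPKM in NC cells (difference -1.04, adjusted p = 0.0254). UBALD2 was at 134, 128 and 104 FPKM with DMSO and 65.5, 66.4 and 69.9 FPKM with VCR, and at 30.9, 40.3 and 43.2 and 98.4, 57.4 and 83.5 FPKM in NC cells (difference -1.86, adjusted p = 0.0247). ERGIC2, RPL22 and COA6 had differences of 1.88, -2.20 and -1.52 (adjusted p = 0.0377, 0.0377 and 0.0433). The count changed with single libraries. It was 2 without PTPN21+DMSO replicate 1, 5 without PTPN21+DMSO replicate 2 or NC+DMSO replicate 1, 7 without PTPN21+VCR replicate 1, 22 without NC+DMSO replicate 3 and 28 without NC+DMSO replicate 2.

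The remaining 4 of the 12 are copies of one microRNA gene, MIR6724-1 to MIR6724-4, on chromosome 21. Their reads cannot be told apart from one another, and the 4 count as 1 observation. MIR6724-4 was at 2.6, 1.79 and 1.91 FPKM with DMSO and 0.803, 0.221 and 0.15 FPKM with VCR (log2 fold change -1.18, SE 0.22, adjusted p = 0.00211) and at 0, 0 and 0 and 6.72, 8.16 and 6.97 FPKM in NC cells (difference -4.22, SE 0.31, adjusted p = 0.000109). It is listed at 0 in every NC library given DMSO, so the size of this difference depends on the pseudocount. With the GC content and length correction its response in PTPN21 cells was -0.044 and did not pass (adjusted p = 0.914, or 0.916 with the block as well), and with the correction and the block together the difference was -2.73 (adjusted p = 0.064). The mature sequence is the same for the 2 copies in the RefSeq table, MIR6724-2 and MIR6724-4, and is shown because it marks them as copies, with the seed (bases 2 to 8) in capitals.
hsa-miR-6724-5p (chr21:8432540-8432562, plus strand): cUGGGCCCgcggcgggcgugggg
FPKM of a gene this short do not measure the mature microRNA.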

How the data were processed

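RNA was sequenced from cells labelled as Jurkat in 4 groups of 3 libraries, and the groups were taken from the labels. The authors deposited 1 table of FPKM for 60671 genes and 12 libraries, made by a sequencing company. The submitters' processing notes name fastp, Bowtie2 and the mouse build mm10, while the identifiers are human. The counting program, the strand setting and filters are not given in the sources used here, and the depth is known only from the estimate given above. Names and positions came from GENCODE release 29 (GRCh38), which covers 96.3% of the identifiers. Positions were not read from the deposited table.

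FPKM + 1 was taken to log2 and tested with limma 3.58.1 (R 4.3.3), with an intensity trend and two-sided moderated tests, in 1 model of the 4 group means, with Benjamini-Hochberg adjustment over 11423 genes and a threshold of 0.05. This procedure was tested on simulated data. The named genes were those that the study measured, the 15 largest rises and falls among protein-coding genes without overlap, the leading members of 34 lists by p, up to 10 genes for the difference of the responses, and the members singled out in the text after their values were seen. Some genes that these rules select are not reported here. The members and the lists were chosen with earlier results of these data known, and 3 more lists were written after the values were seen. Same-numbered libraries were not paired by the data or the labels. The alternatives were other filters, pseudocounts and scalings, no trend, the 6 PTPN21 libraries alone, a replicate block, a correction for GC content and length, and leaving out each library.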

Additional observations from a re-analysis of the deposited data

Results flagged for a closer look

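The responses to VCR of the PTPN21 and NC cells differed, by the limma test of the difference itself, for 12 genes. The difference (response in PTPN21 cells minus response in NC cells, log2 scale) was -4.22 for MIR6724-4, -3.61 for MIR6724-2, -3.50 for MIR6724-3 and -3.68 for MIR6724-1, which count as 1 observation. It was positive for IER2 (3.31), FBXW7 (2.07) and ERGIC2 (1.88). It was negative for RPL22 (-2.20), UBALD2 (-1.86), COA6 (-1.52), NGRN (-1.22) and COX4I1 (-1.04). When each of the 12 libraries was left out in turn, IER2 passed all 12 times, MIR6724-4 in each of the 11 fits that kept it, FBXW7, UBALD2 and NGRN 6 times each, COX4I1 3 times, and ERGIC2, RPL22 and COA6 2 times each. COX4I1 and FBXW7 did not pass the test of the response in PTPN21 cells alone.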

How the results depend on the processing

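The number of genes called in PTPN21 cells stayed within 1.5 times of 3351 under all 24 alternatives, from 2390 (without PTPN21+DMSO replicate 1) to 4170 (the 6 PTPN21 libraries alone), and a change of at least 1 on the log2 scale left 1456. The genes called were not all the same. Of the 3351, 2581 were also called with median ratio scaling, 2658 with quantile normalization and 2500 with the GC content and length correction. The fewest shared were 2301, without PTPN21+VCR replicate 2. The share of called genes that were higher was 32.2%, against 50.95% after median ratio scaling and 51.38% after quantile normalization. In NC cells it was 21.8%, against 56.51% and 52.47%. Libraries with the same number did not deviate together (r from -0.154 to 0.0635 over 18 pairs, and 1 of the 6 PTPN21 libraries correlated best with its own number). With the replicate block 3021 genes were called, or 2847 with the GC content and length correction, for which 99.2% of genes had values. The difference of the responses, with 12 genes, depended on most settings. It gave 21 with a mean FPKM of at least 5, 23 with TPM scaling, 21 with quantile normalization, 7 without the trend, 40 with the GC content and length correction, 6 with the replicate block, 1 with both, and 2 to 28 when single libraries were left out. It could not be fitted on the 6 PTPN21 libraries alone. PTPN21 passed without the trend (-0.55, adjusted p = 0.0451), with the GC content and length correction (-0.65, adjusted p = 0.0312) and with that correction and the block (-0.65, adjusted p = 0.0492). Among the genes checked, the sign turned only for genes that were not called. CDK1 became -0.092 with the GC content and length correction, with or without the block. BAX became 0.020 with median ratio scaling, 0.046 with quantile normalization and 0.17 with the GC content and length correction, with or without the block, and ranged from -0.27 to 0.057 when single libraries were left out. TUBA1C became 0.034 and 0.0078 under the 2 scalings. The cause of these shifts was not tested.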

Other observations

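Mitochondrial tRNA genes were not in any list, and they were looked at after the values were seen. Over all kinds of gene, the 6 largest falls in PTPN21 cells were tRNA genes on the minus strand of the mitochondrial genome, MT-TC, MT-TS1, MT-TN, MT-TY, MT-TE and MT-TP. All 8 tRNA genes of that strand were tested. Of these 6 fell and none rose, beside 19.9% and 9.45% of all genes tested, with a median log2 fold change of -4.48. The groups of 3 did not overlap for 7, and for 50.6% of all genes tested. Of the 14 tRNA genes on the plus strand 1 fell and none rose, with a median of -0.33. MT-ND6, the protein gene of the minus strand and a subunit of complex I, was at 207, 158 and 139 FPKM with DMSO and 48.7, 54.4 and 41.6 FPKM with VCR (log2 fold change -1.77, SE 0.36, adjusted p = 0.00323), while the 12 protein genes of the plus strand ranged from -1.32 to 0.21 and both ribosomal RNA genes rose.

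MT-TC was at 103, 37.5 and 37.2 FPKM with DMSO and 0.585, 0.31 and 0.168 FPKM with VCR (log2 fold change -5.32, adjusted p = 0.0263), so all VCR libraries lay below all DMSO libraries. MT-TP was at 21.1, 13.7 and 17 FPKM with DMSO and 0.261, 0 and 0.961 FPKM with VCR (log2 fold change -3.74, adjusted p = 0.0047). In NC cells the libraries of one group were far apart, with MT-TC at 8.47, 18.9 and 942 FPKM with DMSO and 0.227, 0.304 and 54.4 FPKM with VCR, and the median of the 8 genes was -1.10. MT-TC lost its call when any of the 6 PTPN21 libraries was left out. FPKM divides by length, so values of genes this short rest on few fragments, and since the strand setting is not given in the sources used here, transcripts of the 2 strands cannot be told apart where they overlap.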
